A study of Mus musculus with 281 samples.

Results

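The 35 genes described here are those of the pigment cell and its melanosome. They were taken as a fixed list of melanocyte and melanosome genes with no measured value used, and all 35 of 35 names were found among the 47752 genes of the expression table. They were *Tyr*, *Tyrp1*, *Dct*, *Pmel*, *Mlana*, *Gpnmb*, *Gpr143*, *Bace2*, *Tspan10*, *Oca2*, *Slc45a2*, *Slc24a5*, *Slc24a4*, *Trpm1*, *Mitf*, *Sox10*, *Pax3*, *Mc1r*, *Erbb3*, *Cdh19*, *Rab27a*, *Mlph*, *Myo5a*, *Rab38*, *Rab32*, *Hps1*, *Hps3*, *Hps4*, *Hps5*, *Hps6*, *Ap3b1*, *Ap3d1*, *Bloc1s1*, *Dtnbp1* and *Lyst*.

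The genes were measured by Smart-Seq2, a full-length RNA-seq method for single cells, in cells aspirated one by one through a glass micropipette from the stria vascularis (SV) of the mouse cochlea. By the labels 40 cells came from *Slc26a4*+/- mice (HET), 69 from *Slc26a4*-/- mice (KO) and all others from wild-type 129S6 mice (WT, *Slc26a4*+/+), and by the study's methods all mice were males on the 129S6 background. *Slc26a4* encodes pendrin, an anion exchanger of the spindle and root cells. The knockout is germline, so every cell of a KO mouse carries it, and the cells were collected at postnatal days 22 to 44.

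Pigment cells make melanin inside the melanosome, an organelle related to the lysosome. The intermediate cells (IMCs) of the SV are the pigment cells of the inner ear. They descend from the neural crest, as skin melanocytes do, lie between the marginal cells (MCs) and the basal cells, and carry the potassium channel *Kcnj10*, on which the potential of the endolymph depends. *Mitf*, *Sox10* and *Pax3* control the genes of this lineage, *Tyr*, *Tyrp1* and *Dct* encode the enzymes of melanin synthesis, and the BLOC and AP-3 complexes with *Rab38* and *Rab32* bring cargo to the maturing organelle.

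No label named the mouse a cell came from, so each genotype counted as 1 sample. No test between genotypes or cell types was therefore made, and values are given with their spread over cells and over collection sessions (cells of 1 run date, day number and age, with at least 2 cells). Counts per cell ran from 1848 to 7932729 with a median of 1312950, and 20 WT cells lay under 100000. Clustering without the 35 genes and 33 further pigment genes gave 79 IMC-like cells (37 WT, 20 HET, 22 KO), 33 spindle cell-like (SC-like), 37 root cell-like (RC-like) and 21 MC-like cells. Another 94 cells formed a cluster led by the blood cell genes *Slc4a1*, *Fcnb* and *Mpo* in which 67.02% of cells still had the IMC markers highest, and 17 formed a cluster led by *Crhbp* and *Slc26a7*. Both were left unnamed. In the IMC-like WT cells the markers *Kcnj10* (mean 3345 CPM, counts per 1000000 counts of the cell), *Dkk3* (3819 CPM) and *Met* (2294 CPM) were high, whereas *Kit* was near 0. In SC-like and RC-like cells, where pendrin is made, the mean *Slc26a4* level was 944 CPM in WT, 554 CPM in HET and 793 CPM in KO, so the RNA of the targeted gene did not separate the labels. Every direction between genotypes thus rests on the labels alone, and WT, HET and KO stand for cells so labelled.

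The upstream sequences of the genes were read first. RefSeq (GRCm38.p6, the C57BL/6J reference, not the 129S6 strain of these mice) gave 30 promoters for 25 of the 35 genes, here the 250 bases before a start. *Bace2*, *Cdh19*, *Erbb3*, *Gpr143*, *Mlana*, *Pax3*, *Pmel*, *Rab38*, *Slc45a2* and *Sox10* were not matched. The letters CATGTG, the core to which *Mitf* binds in pigment genes, were searched on both strands (the reverse is CACATG) and were in 10 of the 30 promoters (33.3%), against 12.2% of the 32851 promoters of the table. With the flanking T of the melanocyte element, TCATGTG was in 8 of 30 (26.7%) against 3.25%, those of *Dct*, *Hps1*, *Mc1r*, *Slc24a5*, *Trpm1*, *Tspan10*, *Tyr* and *Tyrp1*. All TCATGTG matches are also CATGTG matches. CACGTG, the other letters that *Mitf* can bind, was in 7 of 30 (23.3%) against 6.02%, and TGACGTCA, the letters of the cyclic AMP response element, was in 2 of 30 (6.67%) against 1.55%. Of the 30 promoters, 4 are printed 5′ to 3′ on the strand of their gene with the matched letters in capitals, since *Dct* and *Tyr* were the leading enzyme genes of these cells, *Tyrp1* holds the same letters and was hardly read, and the *Mitf* start shown is the one used by pigment cells. *Dct* lies on the minus strand at chr14:118052247-118052496 with 2 matches, the nearer 150 bases before its start, and *Tyr* on the minus strand at chr7:87493513-87493762 with a match 21 bases before. The *Mitf* sequence is chr6:97991533-97991782 on the plus strand, and the 30 bases of *Tyrp1* are chr4:80834155-80834184 on the plus strand, with the match 46 bases before.
*Dct*: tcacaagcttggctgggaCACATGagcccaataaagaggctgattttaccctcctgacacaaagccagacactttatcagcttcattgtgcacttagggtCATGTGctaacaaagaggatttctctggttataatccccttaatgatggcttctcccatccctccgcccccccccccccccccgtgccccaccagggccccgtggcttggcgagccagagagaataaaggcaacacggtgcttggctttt
*Tyr*: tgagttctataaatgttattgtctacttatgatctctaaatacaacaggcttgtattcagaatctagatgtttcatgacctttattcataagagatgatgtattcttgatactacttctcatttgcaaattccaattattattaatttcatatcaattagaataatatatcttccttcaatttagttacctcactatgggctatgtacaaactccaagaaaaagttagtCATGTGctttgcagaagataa
*Mitf*: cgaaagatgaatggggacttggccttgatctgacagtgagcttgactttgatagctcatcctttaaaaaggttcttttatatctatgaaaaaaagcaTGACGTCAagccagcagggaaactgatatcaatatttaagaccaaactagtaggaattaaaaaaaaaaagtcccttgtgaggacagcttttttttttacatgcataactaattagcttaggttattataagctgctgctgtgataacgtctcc
*Tyrp1*: tggggagggagtCATGTGctgcctagtagt
These matches describe the letters of the windows, and whether *Mitf* was bound there was not measured.

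WT cells were compared first, to see in which cell types of the SV the pigment genes were read. The 35 genes as a set marked the IMC-like cells. Their summed level was 5.32% of all counts of an IMC-like WT cell on average (lowest cell 1.29%, median 5.405%, highest 8.85%, 37 cells), while the other types averaged 0.280% (SC-like), 0.289% (RC-like) and 0.163% (MC-like). In the unnamed cluster of 94 cells the WT mean was 3.84%, with cells from 0.014% to 12.8%. *Dct* alone made up 55.4% of the sum in IMC-like WT cells.

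Of the 35 genes, 32 reached a mean of 1 CPM in at least 1 of the 4 named cell types, and *Tyrp1*, *Pmel* and *Oca2* did not. The highest mean was in IMC-like cells for 23 of the 32 (71.9%), against 25.1% of all 14692 genes at this level. It was at least 2-fold above the next cell type for 20 of 32 (62.5%), against 9.37% of all genes. SC-like cells held the highest mean for 5, MC-like for 3 and RC-like for 1. With the highest cell of each gene and cell type left out, 26 genes were highest in IMC-like cells and 22 at least 2-fold so. Several means of the other types rested on single cells. For genes highest in IMC-like cells, folds are thus also given without those cells where they moved by more than 1.5 times. All IMC-like cells were kept for these folds. One RC-like cell with 607399 counts and one SC-like cell with 1848 counts held the highest CPM of several pigment genes, and without both of these the counts were 23 and 19. The median log2 ratio of IMC-like over the next cell type was 1.95 for the 32 genes and -0.85 for all genes. In the plot of the genes by cell type, the enzymes, matrix genes and transport genes stood out in the IMC-like column, while the biogenesis genes were spread over all columns.

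**Figure D1:**
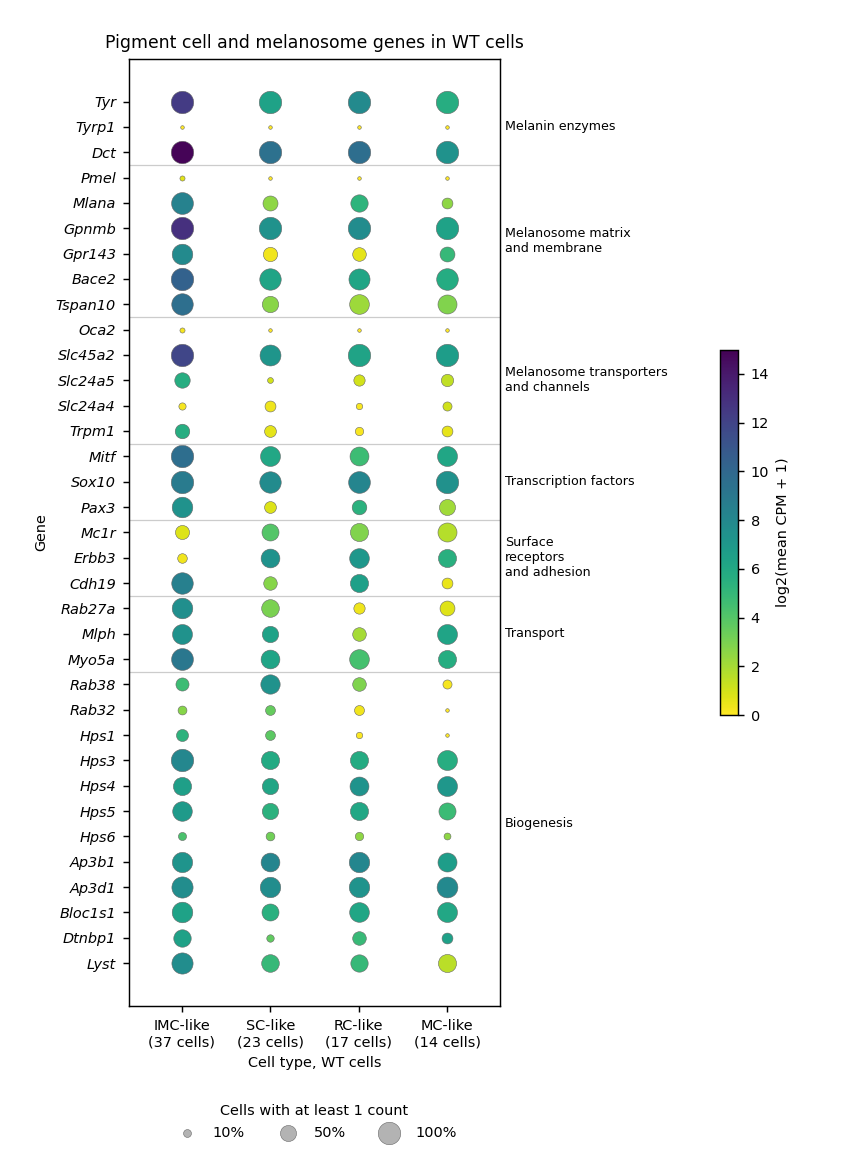
The 35 genes (rows, grouped by role) in the WT cells of the 4 named cell types (columns). Colour is log2(mean CPM + 1) and dot size is the share of cells with at least 1 count. *Dct*, *Gpnmb*, *Tyr* and *Slc45a2* are darkest in IMC-like cells, and *Tyrp1*, *Pmel* and *Oca2* are pale in every column.

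Of the melanin enzymes, *Dct* and *Tyr* were high in every IMC-like WT cell, and *Tyrp1* was not read in any. *Dct*, dopachrome tautomerase, ran from 4742 to 65962 CPM with a median of 27929 CPM and a mean of 29469.7 CPM, 37.3-fold above RC-like cells (789 CPM) and 71.7-fold above the next type without both cells. Its 12 session means lay between 15381 and 43316 CPM. *Tyr*, the rate-limiting enzyme, ran from 1223 to 15562 CPM (median 4913 CPM, session means 3604 to 12157 CPM), and its mean of 5484 CPM was 23.2-fold above RC-like cells (236.3 CPM). Without the same RC-like cell, which had 2491 CPM, the RC-like mean of *Tyr* was 95.4 CPM and the fold 57.5. No IMC-like WT cell lay below the MC-like maximum of *Dct*, 776 CPM, whereas the SC-like cell of 1848 counts reached 8117 CPM and the RC-like cell 6839 CPM. *Tyrp1*, which acts later in eumelanin synthesis, had counts in 0 of 37 IMC-like WT cells, which allows a share of up to 8.11%, and in 3 cells of the whole series. Of its 421 counts, 419 came from 1 IMC-like KO cell (95.7 CPM).

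The genes of the melanosome matrix and membrane were led by *Gpnmb*. This transmembrane glycoprotein, a relative of *Pmel*, ran from 1528 to 15794 CPM (median 7590 CPM, session means 3263 to 11595 CPM), with a mean of 7886 CPM against 215.3 CPM in RC-like cells (36.6-fold, and 81.6-fold over the next type without both cells). *Bace2*, the protease that trims *Pmel*, ran from 23.7 to 2389 CPM (median 1188 CPM, session means 779 to 2010 CPM), 16.9-fold above SC-like cells. *Tspan10*, a tetraspanin, had the largest fold of the group, with a mean of 754 CPM (0 to 2244 CPM, median 697 CPM, session means 389 to 1425 CPM) against 6.12 CPM in MC-like cells (123.3-fold). Both genes were high in nearly all cells. *Mlana*, the melanosome antigen Melan-A, ran from 0 to 1203 CPM (median 260 CPM, session means 55.5 to 778 CPM), 8.74-fold above RC-like cells, or 27.6-fold without the highest RC-like cell (443 CPM). *Gpr143*, the receptor of the melanosome membrane that is lost in ocular albinism, ran from 0 to 946 CPM (median 234.2 CPM, session means 83.7 to 774 CPM), 7.92-fold above MC-like cells, or 23.1-fold without the highest MC-like cell (287.2 CPM). *Pmel*, which encodes the amyloid of the melanosome fibrils, was the exception in this group. It had counts in 3 cells of the whole series, 99 of them in 1 IMC-like KO cell, although *Bace2* and *Gpnmb* were abundant in the same cell type.

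Among transporters and channels, *Slc45a2* was high throughout, and the other 4 genes were in few cells or hardly read. *Slc45a2*, a transporter that sets melanosome pH, ran from 308 to 7370 CPM (median 3695 CPM, session means 2411 to 5949 CPM), and its mean of 3737 CPM was 26.1-fold above SC-like cells (143.1 CPM), where 82.2% of the summed CPM came from the cell of 1848 counts with 5 counts of the gene. *Slc24a5*, an exchanger of sodium, potassium and calcium, had counts in 17 of 37 cells and a mean of 49.01 CPM (0 to 607 CPM), against 1.73 CPM in MC-like cells (28.3-fold, and 46.96-fold over the next type without the highest MC-like cell). *Trpm1*, a cation channel, had counts in 15 of 37 cells and a mean of 48.9 CPM (0 to 582 CPM, session means 0 to 291.1 CPM), against 0.50 CPM in SC-like cells. The medians of *Slc24a5* and *Trpm1* were both 0. *Oca2*, which encodes the anion channel of the melanosome, had 28 counts in 5 cells of the whole series, and *Slc24a4* a mean of 0.15 CPM in IMC-like WT cells.

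Few counts of *Trpm1* were assigned to transcripts that reach the end of the gene. Of 5048 counts in the 79 IMC-like cells, 18 (0.357%) were assigned to the 6 of 23 transcripts that run to the annotated gene end, and the rest to transcripts that stop earlier.

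All 3 transcription factors had their highest mean in IMC-like cells, with the smallest fold for *Sox10*. *Mitf* ran from 156.5 to 1834 CPM (median 810 CPM, session means 309 to 1041 CPM), 11.5-fold above MC-like cells (69.6 CPM). *Sox10*, which is also a gene of glia and of strial epithelia, ran from 60.3 to 1973 CPM (median 393 CPM, session means 209.4 to 1121 CPM) and was 1.53-fold above RC-like cells (292.8 CPM). *Pax3* ran from 0 to 714 CPM (median 145.3 CPM, session means 1.44 to 414 CPM), 3.96-fold above RC-like cells (41.1 CPM), where 97.8% of the summed CPM came from 1 cell at 683 CPM. Without that cell the next type was MC-like at 3.45 CPM, and the fold of *Pax3* was 47.2. The ranges of *Sox10* over cells overlapped in all 4 cell types.

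*Mitf* is transcribed from several starts, and the start shown above is that of the melanocyte isoform. Of 55804 estimated counts in IMC-like WT cells, 65.2% were assigned to transcripts that start between positions 97991792 and 97991921 of chromosome 6 and 34.8% to those that start between 97807052 and 97807058, with 0 for the starts between. Over cells, the melanocyte share ran from 12.9% to 98.8% with a median of 64.9%, and it was over 50% in 31 of 37 cells. The share was 75.4% in HET and 68.8% in KO IMC-like cells, whereas WT cells of the other types had 30.8% (SC-like), 40.0% (RC-like) and 17.03% (MC-like). Only Mitf-202, which starts upstream and took 31.5% of the counts, is annotated with the far 3′ end at 98021349, so reads of that end go to the upstream start whichever start was used.

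The surface genes divided by cell type. *Cdh19*, a cadherin of neural crest and glia, ran from 0 to 1437 CPM in IMC-like WT cells (median 258.2 CPM, session means 85.8 to 660 CPM), 3.89-fold above RC-like cells (93.2 CPM). The same RC-like cell had 1549 CPM of *Cdh19*, 97.7% of the sum over RC-like cells, and without it the fold over the next type was 63.9. *Erbb3*, a neuregulin receptor that the melanocyte lineage uses in development, went the other way. Its mean in IMC-like WT cells was 0.25 CPM, where 6 of 37 cells had a count and 0 cells reached 10 CPM. The means of the other types were 172.5 CPM (SC-like, 0 to 1150.5 CPM, 12 of 23 cells at 10 CPM or more), 131.04 CPM (RC-like) and 46.3 CPM (MC-like). *Mc1r*, the receptor for melanocyte-stimulating hormone, averaged 0.72 CPM in IMC-like WT cells and 15.1 CPM in SC-like ones, with 1 of 23 SC-like cells at 10 CPM or more.

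The 3 genes of melanosome transport all had their highest mean in IMC-like cells. Their products form a chain in which *Rab27a* on the melanosome binds melanophilin (*Mlph*), which binds myosin Va (*Myo5a*) on actin. *Rab27a* ran from 0 to 590 CPM (median 169.4 CPM, session means 0.578 to 414 CPM) with a mean of 194.04 CPM, 27.96-fold above SC-like cells. *Mlph* ran from 0 to 683 CPM (median 80.9 CPM, session means 0 to 484 CPM), 2.13-fold above SC-like cells. *Myo5a* ran from 0 to 1632 CPM (median 413 CPM, session means 112.3 to 973 CPM), 6.92-fold above SC-like cells. Each was at 0 in at least 1 IMC-like cell.

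Of the 12 biogenesis genes, 6 were highest in IMC-like cells and 4 at least 2-fold above the next type. *Lyst*, which controls the size of lysosome-related organelles, ran from 0 to 747 CPM (median 143.4 CPM, session means 0 to 413 CPM) and was 6.93-fold above RC-like cells, or 18.6-fold above the next type without both cells. *Hps3*, a subunit of BLOC-2, ran from 0.694 to 1740 CPM (median 143.45 CPM, session means 81.9 to 665 CPM), 4.60-fold above SC-like cells. Its partner *Hps5* had a mean of 120 CPM (0 to 939 CPM, median 46.8 CPM, session means 23.2 to 258.4 CPM), 1.80-fold above RC-like cells, or 2.83-fold above the next type without the highest RC-like cell (517 CPM). The 2 AP-3 subunits, which serve lysosomal transport in all cells, were not highest in IMC-like cells. *Ap3b1* had means of 152.1 CPM in IMC-like (0 to 648 CPM, median 13.3 CPM) and 288.7 CPM in SC-like cells, and *Ap3d1* of 203.6 CPM in IMC-like (0 to 617 CPM, median 170.5 CPM) and 244.3 CPM in MC-like cells. The other biogenesis genes lay at means of 5.52 to 97.2 CPM in IMC-like cells. Among these, *Hps1* was 3.11-fold above SC-like cells, or 7.47-fold above the next type without the highest SC-like cell. *Hps6* was 2.21-fold above SC-like cells, or 3.79-fold above the next type without the highest SC-like cell.

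*Rab38*, a small GTPase that brings melanin enzymes to the melanosome, was most abundant in SC-like rather than IMC-like WT cells. SC-like cells had a mean of 170.7 CPM (0 to 581 CPM, median 122.2 CPM, counts in 17 of 23 cells), 6.82-fold above IMC-like cells (mean 25.01 CPM, median 0, highest 450 CPM, counts in 12 of 37 cells). Its means were 6.38 CPM in RC-like and 0.15 CPM in MC-like cells. In the plot of single WT cells, *Rab38* and *Erbb3* thus have their clouds to the right of the IMC-like column.

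**Figure D2:**
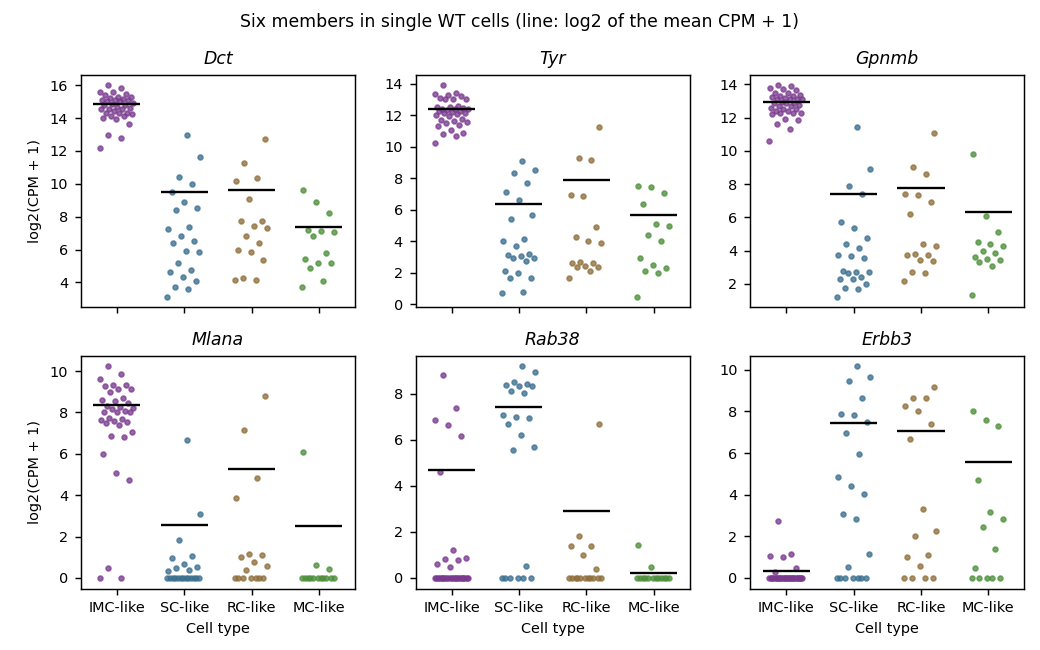
Single WT cells of the 4 named cell types for 6 of the genes, on the log2(CPM + 1) scale with its own range in each panel. Each point is 1 cell and each line is log2 of the mean CPM + 1. *Dct*, *Tyr* and *Gpnmb* are separated from most other cells in all 37 IMC-like cells, *Mlana* in all but a few, *Rab38* is most abundant in SC-like cells, and *Erbb3* is near 0 in IMC-like cells.

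Reads of the abundant pigment genes also appeared outside the IMC-like cells. *Dct* had counts in every cell of the series, with ranges of 7.69 to 8117 CPM in SC-like (median 91.9 CPM), 16.5 to 6839 CPM in RC-like and 12.3 to 776 CPM in MC-like WT cells. The counts of *Tyr*, summed over the cells of a type, relative to those of *Dct* were 18.4% (IMC-like), 17.3% (SC-like), 28.5% (RC-like) and 40.7% (MC-like). In the same order *Slc45a2* had 13.3%, 5.62%, 10.1% and 125.3%, and *Gpnmb* 25.5%, 11.6%, 27.8% and 95.9%. In MC-like cells 93.7% of the counts of *Slc45a2* and 85.1% of those of *Gpnmb* came from 1 cell, and as ratios of mean CPM these 2 values were 62.5% and 48.98%. The SC-like values as ratios of mean CPM were 11.3% for *Tyr*, 20.0% for *Slc45a2* and 23.15% for *Gpnmb*. How far RNA carried over from IMCs gave these reads was not tested.

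On the TPM scale (transcripts per 1000000 transcripts), which divides by length and so allows genes to be compared, *Dct* was the most abundant of all 30736 genes in IMC-like WT cells, with a mean of 20097 TPM ahead of *Ptgds* at 18294 TPM. *Gpnmb* ranked 12 (3897 TPM), *Tyr* 20 (2656 TPM), *Slc45a2* 40 (1880 TPM) and *Mlana* 70 (1170 TPM). *Tspan10* (860 TPM), *Mitf* (538 TPM), *Bace2* (506 TPM) and the BLOC-1 subunit *Bloc1s1* (362 TPM) followed. The ranges over cells of neighbours in this order overlapped. *Pmel* (0.437 TPM), *Mc1r* (0.327 TPM), *Oca2* (0.0839 TPM), *Erbb3* (0.0605 TPM), *Slc24a4* (0.0495 TPM) and *Tyrp1* (0 TPM) closed it. The TPM of *Tyr* depends on how its counts were assigned to transcripts. Tyr-202, annotated as a processed transcript and not as protein-coding, took 74.5% of it, and the protein-coding Tyr-201 21.7%.

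**Figure D3:**
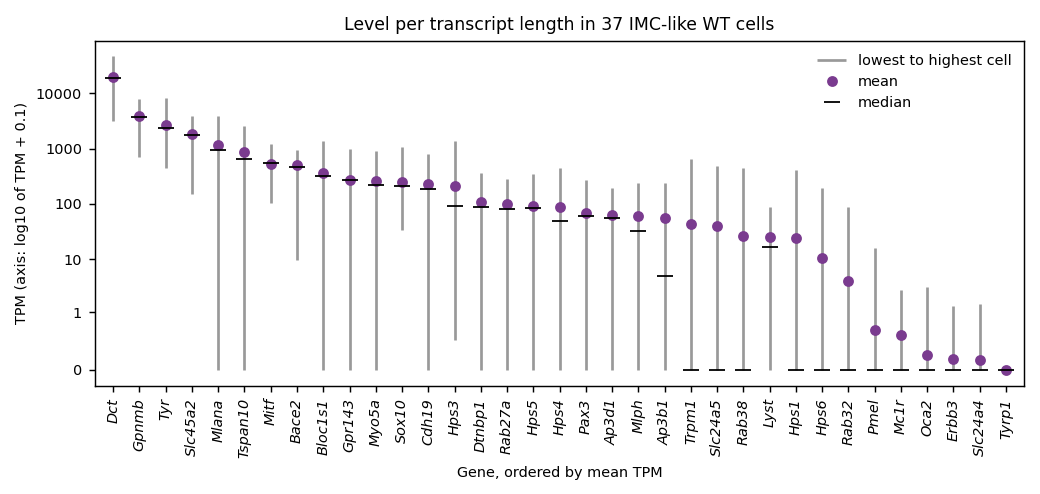
Level per transcript length of the 35 genes in the 37 IMC-like WT cells, ordered by mean TPM, on an axis of log10(TPM + 0.1). Points are means, short black lines medians and grey lines run from the lowest to the highest cell. *Dct* leads at 20097 TPM, and from *Trpm1* on most medians are at 0.

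The genes differed in how evenly the cells carried them. *Tyr*, *Dct*, *Mitf*, *Slc45a2*, *Gpnmb*, *Sox10* and *Bace2* (7 genes) were at 10 CPM or more in every IMC-like WT cell, and with *Mlana* 8 genes were so in at least 90% of them. Another 15 genes reached 10 CPM in 50 to 90% of cells, 4 in 10 to 50% and 8 in less than 10%. The SD over cells divided by the mean CPM was lowest for *Gpnmb* (0.442), *Slc45a2* (0.451), *Bace2* (0.455) and *Dct* (0.474), and it was 1.01 for *Cdh19*, 2.54 for *Trpm1* and 3.23 for *Rab38*.

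The comparison of IMC-like cells between genotypes asked whether pigment genes differ in the IMCs when pendrin is lost. Cells of both genotypes were run together on 2 of the 4 run dates, with 4 WT and 11 KO cells on run date 2 and 7 WT and 11 KO cells on run date 4, so values were compared within those dates. The median depth was 2037494 counts in WT and 1247843 in KO cells on run date 2, and 1831846 in WT and 4072682 in KO cells on run date 4. The KO cells were thus shallower on the first date and deeper on the second. Each session of at least 2 IMC-like cells held 1 genotype. On run date 4 the WT sessions had the lowest day numbers, the HET sessions the next and the KO sessions the highest. Genotype and day of collection thus could not be told apart on that date.

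The summed level of the 35 genes was higher in KO cells, mainly through *Dct*. On run date 2 the 4 WT cells had 4.73%, 5.03%, 5.15% and 7.63% of their counts on these genes, and KO cells 2.70% to 9.79% with a median of 6.68%. On run date 4 WT cells had 3.50% to 8.85% (median 5.83%), HET cells 4.02% to 13.7% (median 9.37%) and KO cells 8.05% to 13.6% (median 10.7%). The groups overlapped on both dates. Without *Dct* the mean was 2.63% in WT and 2.33% in KO cells on run date 2, and 2.18% in WT, 2.29% in HET and 2.52% in KO cells on run date 4. *Dct* made up 55.4% of the sum over all IMC-like WT cells, 75.9% in HET and 71.5% in KO cells.

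*Dct* itself was higher in KO cells on both dates by log2 ratios of 0.57 and 1.08 (all log2 ratios are of mean CPM + 1, which understates the change of low genes). On run date 2 the WT cells had 20670.0, 26124, 29320.0 and 44128 CPM, and KO cells 11110.3 to 69432 CPM (median 43044 CPM). On run date 4 WT cells had 15582 to 65962 CPM (median 36778 CPM) and KO cells 58679 to 99856 CPM (median 78861 CPM). The HET cells of run date 4 had 22186 to 118466 CPM (median 70239.9 CPM), a log2 ratio of 0.98 over WT, and KO over HET was 0.10. The ranges overlapped between all genotypes. By session, the KO means on run date 4 (72906 and 84101 CPM) were both above the 3 WT means (26180.1 to 43316 CPM), whereas on run date 2 the 4 KO means (29297 to 60612 CPM) lay on both sides of the 1 WT mean (35126 CPM).

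Of the 35 genes, 33 reached the filter (a mean of 1 CPM in WT or KO cells of either run date), and *Oca2* and *Slc24a4* did not. More than 2-fold higher in KO on both dates were 2 of 33, *Rab38* and *Hps6*, against 12.2% of all 12930 genes, and more than 2-fold lower was 1, *Trpm1*, against 4.45%. The median log2 ratio of the 33 genes was 0.18 on run date 2 and 0.08 on run date 4, against 0.44 and 0.00 for all genes. The sign was the same on both dates for 20 of 33, and for 50.3% of all genes.

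**Figure D4:**
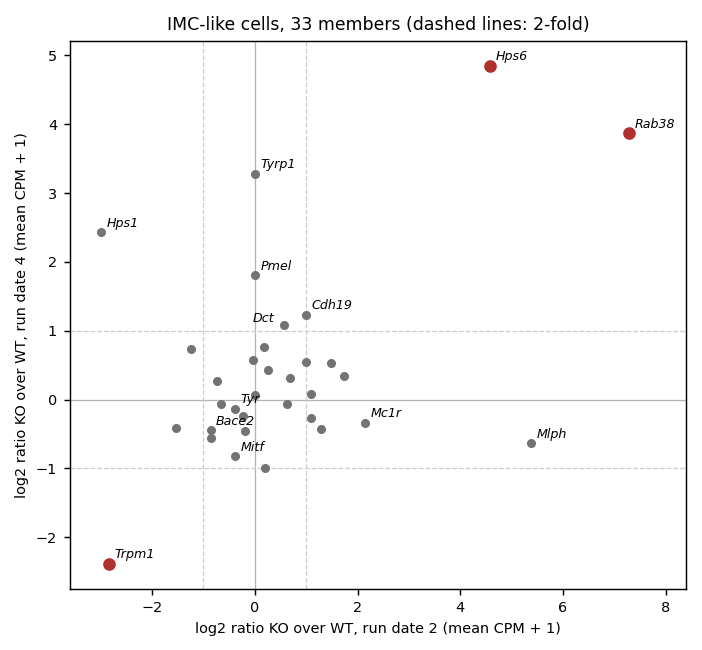
Log2 ratio of mean CPM + 1, KO over WT, in IMC-like cells on run date 2 (x axis) and run date 4 (y axis) for 33 of the genes. Red points are past 2-fold in 1 direction on both dates. *Rab38* and *Hps6* stand at the upper right, *Trpm1* at the lower left, and most other genes lie near the centre or are past 2-fold on 1 date only.

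*Rab38* differed most. On run date 2, the 4 WT cells had 0 to 0.759 CPM with 2 counts in all, and the KO cells 1.73 to 478 CPM (median 163.6 CPM) with 10 of 11 cells at 52.1 CPM or more. The log2 ratio was 7.28, and the ratio of the pooled CPM was 735 with a 95% counting interval of 203.3 to 6071. On run date 4, the 7 WT cells had a mean of 14.2 CPM, 1 of them at 97.7 CPM and the others at 1.33 CPM or less, and the 11 KO cells had 65.1 to 420 CPM (median 220 CPM), a log2 ratio of 3.87. All but 1 of the KO cells of these dates were thus in the range that most WT cells did not reach. Intervals here cover counting error only, since amplified reads without molecular identifiers are not independent molecules.

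The HET cells fell into separate levels of *Rab38*. Of 20 HET cells, 7 had 76.7 CPM or more, and the other 13 had 0.846 CPM or less, with a mean over all of 70.5 CPM. Between 1.73 and 23.1 CPM there was no IMC-like cell of any genotype. At 10 CPM or more were 21 of 22 KO, 7 of 20 HET and 6 of 37 WT cells, as the plot of single cells shows. WT cells with high *Rab38* did occur, with 1 of 2 cells on run date 1 (450 CPM) and 4 of 24 on run date 3 (23.1 CPM or more). Session means on run date 2 were 118.01 to 244.998 CPM in KO and 0.380 CPM in WT, and on run date 4 they were 176.6 and 262.7 CPM in KO, 28.4 to 121.9 CPM in HET and 0 to 49.5 CPM in WT. Every KO session mean was thus above every WT session mean of its date, which held for 3.03% of all genes, but run date 2 had a single WT session.

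**Figure D5:**
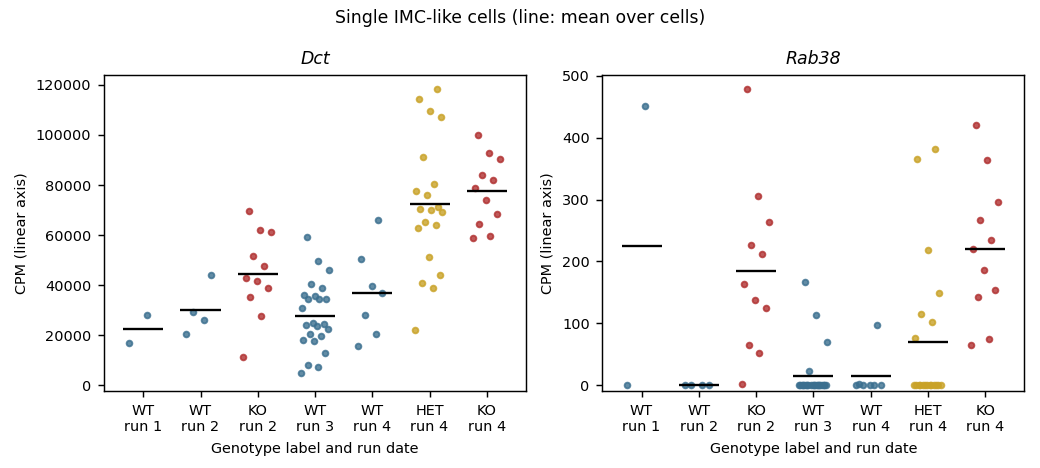
*Dct* (left) and *Rab38* (right) in single IMC-like cells, in CPM on linear axes from 0, by genotype and run date. Points are cells and lines are means. *Dct* overlaps between genotypes, while *Rab38* is at or near 0 in most WT and HET cells and above 50 CPM in 21 of 22 KO cells.

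Since *Rab38* was highest in SC-like WT cells, the SC markers were read in the same IMC-like cells. Their summed level had a median of 536 CPM in WT (34.9 to 667 CPM) and 588 CPM in KO (25.3 to 822 CPM) on run date 2, and of 826 CPM in WT (485 to 1923 CPM), 526 CPM in HET and 809 CPM in KO (507.7 to 1292 CPM) on run date 4. These ranges overlapped between the genotypes on both dates. Most of the sum was *Anxa5*, with a mean of 665 CPM in IMC-like WT cells, while each other SC marker had 29.5 CPM or less. The sum thus could not show how much RNA of spindle cells the IMC-like cells held, and this was not tested. *Rab38* lies on chromosome 7 (88430273 to 88491572, GRCm38), 937 kb from *Tyr* (87424771 to 87493512), and *Tyr* had log2 ratios of -0.39 and -0.13.

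*Rab38* was also read in other cells. In the unnamed cluster of 94 cells, those with the IMC markers highest had on run date 2 a mean of 161.1 CPM in KO (10 cells, median 87.0003 CPM, counts in 8) and 1.23 CPM in WT (5 cells). SC-like cells of run date 2 had 249.6 CPM in KO (8 cells, 0 to 732 CPM) and 0 and 132.3 CPM in the 2 WT cells. MC-like cells of that date had 2.08 and 440.4 CPM in the 2 KO cells and 0 CPM in the 4 WT cells, and RC-like cells 0 to 293.6 CPM in KO (7 cells, counts in 2) and 1.61 CPM in the 1 WT cell. Single KO cells with high *Rab38* thus also occurred outside the IMC-like cells on run date 2. On run date 4 RC-like cells had means of 0.314 CPM in KO (7 cells) and 0.857 CPM in WT (6 cells), and MC-like KO cells 0 to 0.285 CPM (3 cells). Whether the difference between the genotypes differed by cell type was not tested.

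*Hps6*, a BLOC-2 subunit, was higher in KO through few cells. It had 0 counts in all 11 WT cells of both dates. On run date 2, 7 of 11 KO cells were at 0 and 1 had 208.7 CPM (493 counts in all, 95% interval 450 to 539), at least 85.3-fold above the limit of 3 counts over the WT cells. On run date 4 the KO cells reached 92.2 CPM (median 0), at least 158.6-fold above that limit. The medians were 0 in both genotypes, and with all run dates pooled the log2 ratio of *Hps6* was 0.42. HET cells had 0 to 279.2 CPM (2 of 20 at 10 CPM or more), and WT cells of run date 3, with no KO cells beside them, had 0 to 334 CPM (3 of 24 at 10 CPM or more).

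The mean of *Trpm1* was lower in IMC-like KO cells, again through few cells. On run date 2 the WT cells had 0, 0, 0.694 and 582 CPM and the KO cells 0 to 200.9 CPM (mean 19.6 CPM), a log2 ratio of -2.83. On run date 4, 5 WT cells were at 0 and the others at 121.2 and 443 CPM, and KO cells had 0 to 86.1 CPM (mean 14.6 CPM), a log2 ratio of -2.38. More of the KO cells had a count there, 8 of 11 against 2 of 7 WT cells, with medians of 1.58 and 0 CPM. With cells thinned to 100000 counts, the shares with a count were 45.5% in KO and 28.6% in WT. The ranges overlapped, and without the highest cell of each group *Trpm1* no longer passed 2-fold on both dates. HET cells had 0 to 82.2 CPM. In the unnamed cluster led by blood cell genes, the direction on run date 2 was the other way. The WT cells of that cluster and date had 2.47 CPM of *Trpm1* or less. Single KO cells there had 485.8 and 328.9 CPM. Further KO cells had lower levels that were still above those WT cells, and others were at or near 0. The lower mean of *Trpm1* thus holds only for the cells named IMC-like.

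*Cdh19* and *Bace2* differed less, but their means over sessions of at least 2 cells did not overlap between KO and WT within a date. Run date 2 had a single WT session, of 2 cells. *Cdh19* had log2 ratios of 0.99 and 1.23, with 113.8, 349, 477 and 767 CPM in the WT and 201.9 to 1709 CPM in the KO cells of run date 2, and 0 to 645 CPM in the WT and 169.4 to 1203 CPM in the KO cells of run date 4. Its session means were 639 to 1192 CPM in KO and 440 CPM in WT on run date 2, and 602 and 750 CPM in KO and 158.4 to 346 CPM in WT on run date 4. The HET cells of run date 4 had a mean of 558 CPM. *Bace2* went the other way with log2 ratios of -0.86 and -0.45. The WT cells of run date 2 had 477, 1128, 1826 and 2389 CPM against 10.4 to 1674 CPM in KO, and on run date 4 they had 866 to 2014 CPM against 754 to 1284 CPM. Its session means were 260.7 to 1172 CPM in KO against 1433 CPM in WT, and 924 and 952 CPM in KO against 1060 to 1719 CPM in WT. The KO cell of run date 2 outside these sessions had 1674 CPM of *Bace2*, above the WT session mean. *Rab38* and *Cdh19* were the 2 genes of 33 with every such KO session mean above WT on both dates, against 3.03% of all genes. *Bace2* was the 1 gene below, against 2.00% of all genes. Single cells of both genes overlapped between the genotypes.

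None of the remaining abundant genes was past 2-fold in the same direction on both dates. *Gpnmb* had log2 ratios of 0.18 and 0.76, *Mitf* of -0.38 and -0.82, *Slc45a2* of -0.66 and -0.06 and *Sox10* of -0.23 and -0.24. *Mitf* on run date 4 had 336 to 1834 CPM in WT (median 789 CPM) and 158.6 to 887 CPM in KO (median 535 CPM), which overlapped. Of the transport genes, *Rab27a* had 0.69 and 0.31, and *Myo5a* 1.10 and -0.27. *Mlph* had 5.39 on run date 2, where the WT cells had 0, 0, 1.14 and 9.84 CPM and the KO cells 0 to 521 CPM, but -0.63 on run date 4, where WT cells reached 532 CPM and KO cells 375 CPM. *Hps1* turned from -2.99 to 2.43 and *Pax3* from -1.23 to 0.74. *Gpr143* (0.00 and 0.07), *Lyst* (0.27 and 0.43), *Hps3* (1.74 and 0.34) and *Hps5* (1.48 and 0.54) completed the genes with levels over 100 CPM in WT, with *Tspan10* (-0.74 and 0.27), *Mlana* (0.21 and -0.99), *Ap3b1* (-0.03 and 0.57) and *Ap3d1* (1.29 and -0.42).

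HET cells were compared with the WT cells and the KO cells of run date 4, which share those cells with the comparison of KO and WT. HET against WT, 6 of the 30 genes that reached the filter were more than 2-fold higher, namely *Rab38* (2.24), *Hps6* (4.07), *Hps1* (1.61), *Dtnbp1* (1.22), *Ap3b1* (1.08) and *Cdh19* (1.03), against 28.7% of all 12020 genes. More than 2-fold lower were 2, *Rab32* (-3.30) and *Trpm1* (-2.81), against 19.1%. The median log2 ratio was -0.04, and 0.09 for all genes. KO against HET, 5 of 31 were higher, namely *Tyrp1* (3.27), *Rab32* (3.23), *Pmel* (1.81), *Rab38* (1.63) and *Hps4* (1.09), against 17.5% of all 12127 genes. Lower were 2, *Dtnbp1* (-1.67) and *Slc24a5* (-1.10), against 20.6%, and the median was 0.18 against -0.12 for all genes. *Tyrp1* passed through a single KO cell. For *Rab38* the means stood in the order WT 14.2 CPM, HET 70.5 CPM and KO 220 CPM, with overlapping cells between neighbours. For *Dct* the order was 36738, 72237 and 77518 CPM, the last pair differing by less than the spread over cells. The day numbers of the sessions stood in the same order of genotypes, so genotype and day of collection could not be told apart.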

How the data were processed

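Poly(A) RNA of 281 single cells was amplified by Smart-Seq2 and sequenced as Nextera XT libraries. The authors quantified transcripts with Kallisto against mm10 (GRCm38); version and annotation release are not given in the sources used here. The deposited gene table holds estimated counts, and the deposited transcript tables of each cell hold estimated counts and TPM made by the authors. The 17 columns of the gene table that match no sample used here were left out.

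CPM were computed from the estimated counts of all 47752 genes. Transcripts were joined to genes through GENCODE M21, which lacked 1376 of 98492 transcripts (a median of 0.691% of a cell's counts), and 30736 genes had TPM. No cell repeated the profile of another (0 identical pairs). Reads carry no strand, so overlapping genes cannot be told apart. Cells were clustered with Seurat 5.3.0 (R 4.3.3) without the 35 genes and the further pigment genes, and clusters were named from fixed marker lists. No doublet caller was run, since cells were picked singly.

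Because no mouse is named, each genotype was 1 sample: ratios were computed on log2(mean CPM + 1) within run dates, with genes called past 2-fold, in Python 3.11.15 (pandas 2.3.3), and the steps were tested on simulated data. Genes were filtered at a mean of 1 CPM. Values are given in full for genes at 100 CPM or more in IMC-like WT cells and for called genes, and *Rab38*, *Hps6* and *Trpm1* entered by the second part of that rule. The values of 1 gene of the list of further pigment genes are not reported here. Genes, lists and comparisons were chosen with earlier results of these data known. Depth was 1848 to 7932729 counts per cell, and 3 counts over a group were taken as the limit of detection. Alternatives covered the clustering, cell filters, pseudocount, fold limit, scale and run dates.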

Additional observations from a re-analysis of the deposited data

How the results depend on the processing

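Of the alternative values for the summaries, 19 moved beyond the spread or beyond 1.5 times the value given, and of 495 for single genes 29 did. The sign of the log2 ratio of KO over WT changed in 1 or more alternatives for 18 of the 33 genes (0 of the 3 past 2-fold on both dates), and for *Pax3* it was kept in 8 of 15. Genes highest in IMC-like WT cells numbered 18 to 26 (23 in the report) and those at least 2-fold above the next type 17 to 22 (20). Genes past 2-fold in KO on both dates numbered 2 to 7 (3), with 7 (7 higher: *Rab27a*, *Rab38*, *Hps3*, *Hps4*, *Hps5*, *Hps6*, *Cdh19*; 0 lower) from the mean of log2(CPM + 1). *Rab38* and *Hps6* passed on both dates in all 17 alternatives of this count, which do not include pooling the run dates, and *Trpm1* was lost at clustering resolutions 0.4 and 1.2, with cells named by marker score, with the mean of log2(CPM + 1) and without the highest cell of each group. The log2 ratio of *Rab38* ran from 2.97 to 7.33, of *Hps6* from 0.42 to 7.98, of *Trpm1* from -2.83 to -0.14, of *Dct* from 0.57 to 1.08 and of *Cdh19* from 0.86 to 1.70.

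The median log2 ratio of the genes in KO over WT (0.35) was 0.17 with a pseudocount of 10, 0.0249 and 0.0266 at resolutions 0.4 and 1.2, 0.0578 by marker score, 0.51 with the mean of log2(CPM + 1), 0.66 without the highest cell, 0.19 and 0.17 for run dates 2 and 4 alone (over the 30 and 32 genes that reached the filter on that date, against 0.18 and 0.08 over the 33), and -0.0150 with run dates pooled. HET against WT, genes past the limit were 14 at 1.5-fold and 4 at 4-fold (8 at 2-fold). KO against HET they were 3 with a pseudocount of 10, 14 (14 higher, 0 lower) with the mean of log2(CPM + 1) and 2 at 4-fold (7 at 2-fold). In TPM the summed level was 3.40% in WT, 6.28% in HET and 5.73% in KO cells, and the melanocyte start of *Mitf* took 81.5%. The causes were not tested. Keeping only cells whose own marker list was highest, and leaving out in WT cells the highest cell of each gene and type or the 2 cells named in the report, were chosen after seeing the data. No paired analysis was possible because the labels number single cells and give no number shared between genotypes. With 4 WT cells on run date 2 and 0 for a median in many genes, differences under 2-fold and genes seen in few cells were beyond what this depth could settle.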

Other observations

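Beyond the 35 genes, 33 further genes of the pigment lineage and its organelles were read from a second list. Of 30 that reached a mean of 1 CPM in a named WT cell type, 7 (23.3%) had their highest mean in IMC-like cells, all at least 2-fold above the next type, against 25.1% and 9.37% of all genes. *Ednrb*, the endothelin receptor that melanocyte precursors need, had 1125 CPM against 5.75 CPM in RC-like cells (195.7-fold). Among the others, *Met*, the receptor of hepatocyte growth factor, had 2294 CPM (9.92-fold), the tetraspanin *Cd63* 1930 CPM (3.14-fold), the copper pump *Atp7a* 330 CPM (3.13-fold), *Tfap2a* 7.86 CPM (2.39-fold) and *Cited1* 156.5 CPM (2.09-fold). *Ednrb* and *Met* also served as IMC markers, so their place is no separate result.

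In IMC-like cells of the 2 run dates with both genotypes, 6 of 28 further genes were more than 2-fold higher in KO on both dates, *Atp7a*, *Tfap2a*, *Tpcn2*, *Bloc1s3*, *Bloc1s4* and *Rabggta*, and 3 were lower, *Ptgds*, *Bloc1s2* and *Ap3s1*, against 12.2% and 4.45% of all genes. *Atp7a*, which supplies copper to tyrosinase, had means of 125.7 CPM in WT and 509 CPM in KO on run date 2 and of 131.6 and 341 CPM on run date 4, with 294.5 CPM in HET. *Ptgds*, the prostaglandin D synthase that ranked next to *Dct* in IMC-like WT cells, had 5033 CPM in WT and 2078 CPM in KO on run date 2. It had 8519 and 3491 CPM on run date 4, with 6417 CPM in HET, and every KO session mean lay below WT. Over WT cells *Ptgds* was higher in MC-like (20162 CPM) than in IMC-like cells (7453 CPM). How far RNA carried over from MCs added to its level was not tested. *Bloc1s4* had 0 counts in the WT cells of run date 2 and was at least 217.9-fold above the limit of 3 counts in KO. The other 6 genes had WT means under 50 CPM except *Ap3s1* on run date 2 (160.9 CPM in WT, 19.1 CPM in KO).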
